A study of Homo sapiens with 24 samples.

Results

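The step from definitive endoderm (DE) to pancreatic progenitors (PP) was described gene by gene from lists of N6-methyladenosine (m6A) peaks. A gene was included when at least 1 peak of the DE or the PP list carried its gene identifier, which held for 15438 of the 20424 genes with a peak in any of the 5 lists read. Of these, 9967 genes had a peak in both lists (kept, 64.6%), 3541 only in DE (lost, 22.9%) and 1930 only in PP (gained, 12.5%). These 3 shares are the background against which every gene group below is read. Across the alternatives run, 11.6% to 21.8% of genes gained and 21.1% to 34.7% lost peaks, both highest with p below 1e-10.

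In the study, human embryonic stem cells of the MEL1 line (MEL1 INS GFP/W in the methods, with a GFP reporter at the insulin locus) were differentiated stepwise towards islet-like organoids, and 24 m6A-seq libraries were made along the way. In m6A-seq, RNA is broken into short fragments, a part is precipitated with an antibody against m6A (IP), the rest is sequenced directly (input), and peaks are stretches where IP reads exceed input reads. The DE and PP groups each had 2 IP and 2 input libraries of batch 1, prepared from mRNA with a SYSY antibody. DE cells had received 100 ng/ml activin A on days 1 to 3, together with 3 µM CHIR99021, an activator of Wnt signalling, at the start. For PP, the same steps were followed by 50 ng/ml KGF on days 4 to 8, then 2 µM retinoic acid with 0.1 µM LDN-193189 (a BMP receptor inhibitor) and 0.1 µM GDC-0449 (a Hedgehog inhibitor) on days 7 to 8, and 50 ng/ml EGF with LDN-193189 on days 9 to 14. All groups thus shared 1 parental line with its reporter, DE and PP also the early activin steps, and stem cells had been kept on CF1 feeder cells beforehand. A further PP list from unedited cells (WT PP) was used as a second look at the same cell type. It held a peak for 62.4% of all gained and 55.7% of all lost genes, the background for counts in WT PP below. It came from batch 2, where total RNA, a Millipore antibody, rRNA depletion of the input and another library kit were used, so batch and culture cannot be told apart in it. Lists of undifferentiated cells (hPSC) and organoids (hILO), both of batch 1, were read for the stages before and after.

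m6A is the commonest internal mark of mRNA. It is written co-transcriptionally by a complex built on METTL3 and METTL14, removed by FTO and ALKBH5, and read by YTH-domain proteins, several of which speed the decay of the marked transcript. It sits mostly in long internal exons and around stop codons, in short motifs of which GGAC is the most typical. In the developing gut tube, endoderm factors such as SOX17 and EOMES give way under retinoic acid to the pancreatic factors PDX1, SOX9 and NKX6-1.

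Each list was called by the authors on the 4 libraries of a group together, so a value per library was not analysed here. No spread between replicates could be computed, no test was made, and intervals given with shares are Wilson 95% intervals that cover counting error only. The DE list held 32680 peaks on 13508 genes (2.42 per gene) and the PP list 29083 peaks on 11897 genes (2.44 per gene). Input reads in peaks were 12602604 in DE and 6987612 in PP, and IP reads 30723097 and 30944774. A gene without a peak has no row in a list, so a gene whose transcript was absent and one whose transcript was present but unmarked cannot be told apart by the loss of its peaks. In bulk cells, fewer cells of a type and less RNA per cell cannot be told apart either.

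The labels were checked against marker genes. All 9 endoderm markers had a peak in DE and 5 of 9 in PP, where SOX17, EOMES, CER1 and LHX1 had none. Of 8 pancreatic progenitor markers, 2 had a peak in DE, among them MNX1, and 7 in PP, the exception being PTF1A. Of the pluripotency markers, POU5F1 and NANOG had a peak in DE and none in PP. Other cell types were also represented: mesoderm and mesenchyme markers in 4 of 6 cases in DE and 3 of 6 in PP, endocrine markers in 1 and 2 of 6, liver markers in 1 and 0 of 4, intestinal markers in 1 and 2 of 3, and neural markers in 1 and 0 of 4. Epithelial markers had a peak in 4 of 5 cases in DE and 5 of 5 in PP. The part of such cells in the results was not tested.

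Peak windows of 8 factors that gained or lost their peaks, and of MNX1, which kept its own, are shown because they carry the change of cell identity. Each is 21 bases of GRCh38 (hg38) read 5′ to 3′ on the strand of the gene, centred on a GGAC motif, with this central motif in capitals. The MNX1 window holds further GGAC motifs, left in lower case. The first 4 come from PP peaks in 3′ UTRs of gained genes, at chr13:27925016-27925036 (+, PDX1), chr4:84492664-84492684 (-, NKX6-1), chr17:72124463-72124483 (+, SOX9) and chr15:52757476-52757496 (-, ONECUT1). The next 4 come from DE peaks of lost genes, in the coding sequence at chr3:27717136-27717156 (-, EOMES), chr9:14720134-14720154 (-, CER1) and chr10:70435763-70435783 (-, NODAL), and outside the longest isoform at chr17:36936965-36936985 (+, LHX1). The last window, chr7:157005628-157005648 (-, MNX1, coding sequence), lay in a peak of identical extent in both lists.
PDX1: ccaccttgGGACctgtttaga
NKX6-1: aaaaagatGGACtttcttcct
SOX9: ttccctttGGACatttgtgtt
ONECUT1: aaagaccaGGACctcaagata
EOMES: aagtgtgaGGACattaatgct
CER1: atgaagatGGACacatcctac
NODAL: tttcagatGGACctattcact
LHX1: ctgcgccaGGACatttttttt
MNX1: gaggacgaGGACgacgaggac

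The peaks around these windows held 3 GGAC motifs in PDX1, 4 each in NKX6-1, SOX9 and ONECUT1, 5 in EOMES, 1 in CER1, 2 in NODAL, 3 in LHX1 and 8 in MNX1. The windows of SOX9, ONECUT1, PDX1 and NKX6-1 lay 138, 142, 262 and 679 nt past the stop codon. The 4 PP peaks shown here were covered by peaks of WT PP. Of all PP peaks of these genes, 3 of 4 were covered in PDX1, 3 of 3 in NKX6-1, 1 of 2 in SOX9 and 1 of 6 in ONECUT1. Covered was also the DE peak of the lost gene CER1, whereas those of EOMES, NODAL and LHX1 and the peak of MNX1 were not. A motif in a peak marks where methylation could lie and does not place it at a base.

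Most pancreatic progenitor factors with a peak gained peaks or had more of them in PP. Of 26 genes on the list, 22 had a peak in DE or PP: 11 gained, 1 was lost and 10 were kept, so 50.0% gained against 12.5% of all genes. The members of this and the other lists were chosen with earlier results of these data known. Such contrasts with all genes are therefore a description. Summed over the list, peaks numbered 27 in DE and 79 in PP. All 11 gained genes also had a peak in WT PP, against 62.4% of all gained genes and 90.5% of those with 3 or more peaks. PDX1, the master regulator of the pancreas, went from 0 to 4 peaks and had 2 in WT PP. NKX6-1, a factor of the beta cell lineage, went from 0 to 3, with 5 in WT PP. SOX9, which maintains the progenitor pool, went from 0 to 2, with 2 in WT PP. The 2 paralogous factors ONECUT1 and ONECUT2, which act upstream of endocrine commitment, rose from 0 to 6 and from 0 to 8 peaks, with 5 and 12 in WT PP. PROX1, a factor of early pancreas and liver buds, rose from 0 to 7. NR5A2, a nuclear receptor of the exocrine lineage, and CDX2, a posterior gut factor, each rose from 0 to 3. RFX6 and HNF4G gained 1 peak each. SOX9, ONECUT1, NR5A2 and PROX1 also carried peaks in hPSC (2, 5, 4 and 1), so along the series they lacked peaks in DE and had them before and after. Across limits on enrichment, p or input reads per peak and with lists of equal size, 11 to 16 genes of the list gained and 0 or 1 was lost, while 12.7% to 17.6% of all genes gained.

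Among the kept members of this list, 6 had more peaks in PP, 3 fewer and 1 the same number, with a median change of +1. That median was 0 for the 5 genes kept with p below 1e-05. It was -1 for the 4 kept with at least 50 input reads per peak. GLIS3, a zinc finger factor of beta cell development, went from 2 to 8 peaks and had 10 in WT PP. MEIS2 went from 2 to 7 and MEIS1 from 1 to 3 peaks, HNF4A from 3 to 5 and MNX1 from 3 to 4. GATA6, needed in endoderm and pancreas alike, went from 4 to 2, TCF7L2 from 4 to 3, and FOXA2, the pioneer factor of endoderm, stayed at 2. NKX6-2 was the only lost gene, with 1 peak in DE. PTF1A, GP2, CPA1 and DLK1 had no peak in either list but 1, 4, 1 and 6 in WT PP.

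**Figure D1:**
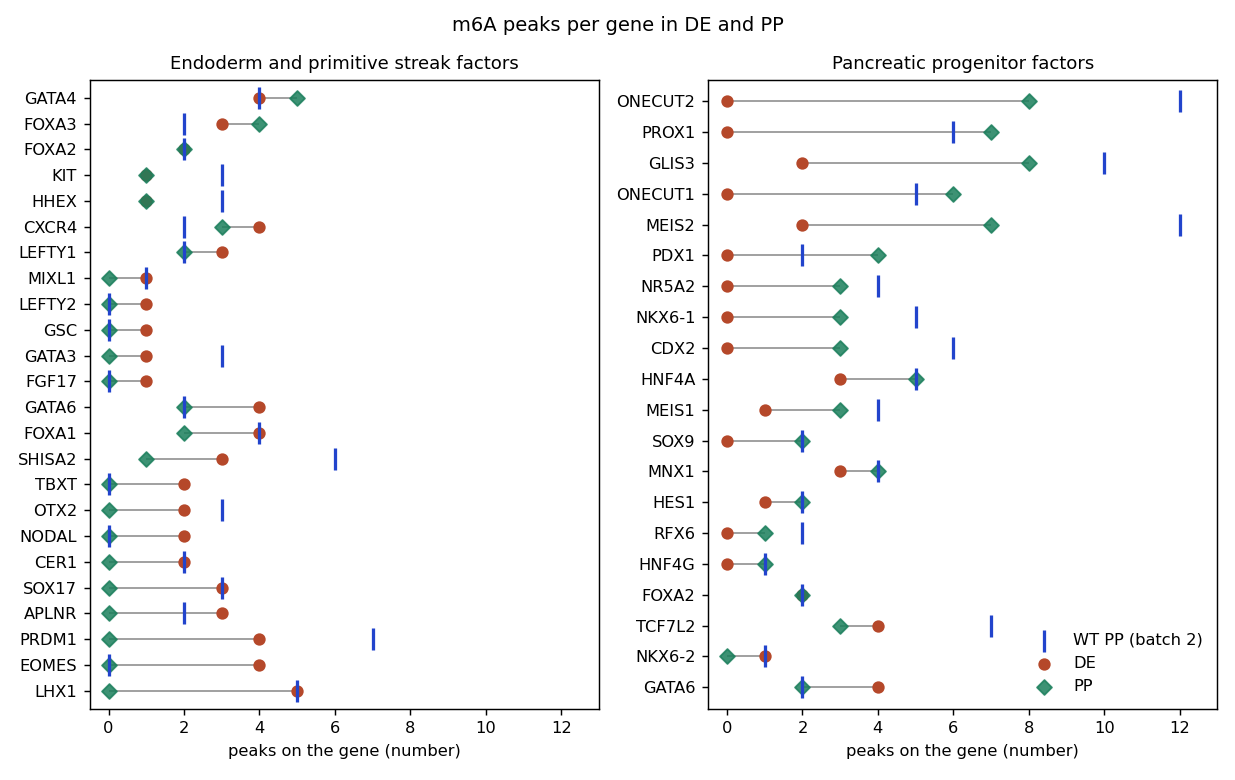
Number of m6A peaks on each endoderm and primitive streak factor (left) and each pancreatic progenitor factor (right) with a peak in DE or PP. Circles are DE, diamonds PP and ticks WT PP of batch 2; each value comes from 1 list called on pooled libraries and has no error bar. Genes not reported here are left out. The left panel shows 14 genes falling to 0 in PP, and the right panel genes rising from 0, led by ONECUT2 with 8.

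Endoderm and primitive streak factors moved the other way. All 25 had a peak in DE: 14 were lost (56.0% against 22.9% of all genes), none gained and 11 were kept, and their summed peaks fell from 65 to 26. LHX1, a homeobox factor of the organizer, went from 5 to 0 peaks. EOMES, the T-box factor that opens the endoderm programme, went from 4 to 0, and PRDM1 likewise. SOX17 and APLNR went from 3 to 0, and CER1, NODAL, OTX2 and TBXT from 2 to 0. GSC, MIXL1, LEFTY2, FGF17 and GATA3 lost their single peak. The kept members included CXCR4 (4 to 3), FOXA1 (4 to 2), GATA4 (4 to 5) and HHEX (1 and 1), and their median change was -1. The WT PP list did not share all of these losses: 8 of the 14 lost genes had a peak there, near the 55.7% of all lost genes. Among them were LHX1 with 5, SOX17 with 3, CER1 with 2 and PRDM1 with 7. EOMES, NODAL, TBXT, GSC, LEFTY2 and FGF17 had 0 in WT PP as well. Under the same alternatives 14 or 15 genes of the list were lost and none gained, while 21.1% to 29.3% of all genes were lost.

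Pluripotency genes also lost peaks, with 8 lost (53.3%, against 22.9% of all genes), 6 kept and 1 gained of 15 with a peak. NANOG (2 peaks in DE), POU5F1 (1), TDGF1 (2), GDF3 (3), ZIC2 (4) and the lncRNA ESRG (3) had none in PP or WT PP, and ZFP42 had 1 in WT PP. All 8 lost genes had a peak in hPSC, against 63.3% of all lost genes. SALL4 stayed at 6 peaks and LIN28B at 3, L1TD1 rose from 3 to 6 (2 in WT PP), and DNMT3B gained 1 that WT PP lacked. No peak analysed here carried the identifier of SOX2, so nothing is said of its marking.

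The HOX and TALE list gained peaks on 12 of 22 genes with a peak (54.5% against 12.5% of all genes), lost them on 2 and kept them on 8. HOX factors pattern the body from head to tail and answer to retinoic acid, and TALE factors (MEIS, PBX, PKNOX) bind DNA with them. Among the gained genes were PBX3 with 2 peaks, HOXB4 with 4, HOXA3, HOXB8 and HOXB9 with 3 each, HOXA2, HOXA5 and HOXB6 with 2 each, and HOXA4, HOXA7 and HOXB7 with 1 each. HOXB3 was kept and went from 1 to 5. In WT PP 9 of the 12 had a peak, against 62.4% of all gained genes. Of the 12, only HOXB7, HOXB8 and PBX3 had one in hILO. None of the HOXC and HOXD genes on the list had a peak in DE or PP. Transcripts of the HOXA and HOXB clusters overlap. A peak in such a stretch was given to 1 gene by its exon bases under the peak, with coding genes preferred where these were close. The split among neighbouring HOX genes is therefore uncertain. Without any peak that carried several gene identifiers, 8 of the list gained and 2 were lost.

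Genes of the signalling pathways that act at these stages were read next to the identity factors. In the Nodal, activin and BMP pathway 30 of 39 genes with a peak were kept, 7 were lost (17.9%) and 2 gained (5.13%). With p below 1e-05, 24 were kept, 11 lost and 4 gained. The lost genes were ligands, co-receptors and antagonists: NODAL, TDGF1 and GDF3 on the Nodal side, LEFTY2 and CER1 as Nodal antagonists, NOG as a BMP antagonist, and ID3, a BMP target. The receptors ACVR1, ACVR1B, ACVR2A and ACVR2B and all SMAD genes listed were kept. SMAD1 went from 6 to 3 peaks, SMAD2 from 5 to 2, SMAD7, an inhibitor of the pathway, from 4 to 1, and SMAD9 from 1 to 4. In WT PP these 4 had 8, 4, 5 and 7 peaks, so the falls of SMAD1 and SMAD7 were not seen there and that of SMAD2 was smaller. BMPR1B, a BMP receptor, gained 3 peaks and TGFBR2 gained 1, and both had a peak in WT PP, as did 3 of the 7 lost genes (CER1, NOG and ID3).

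Notch was the pathway with gains and no loss: 6 of 23 genes gained (26.1%) and 17 were kept. Of all genes 12.5% gained and 22.9% were lost. Gained were the ligands DLL4 (3 peaks) and JAG1 (2), the target HEY1 (3) and the feedback inhibitor NRARP (2). The ligase DTX1 (2) and the co-activator MAML2 (4) gained as well. All 6 had a peak in WT PP, against 62.4% of all gained genes, 76.5% of those with 2 peaks and 90.5% with 3 or more. The receptors NOTCH1, NOTCH2, NOTCH3 and NOTCH4 kept their numbers at 4, 5, 2 and 2. All of these gained genes but DLL4 had peaks in hPSC. The absence of losses depended on the limits, with 2 or 3 lost genes under limits on enrichment, p or input reads.

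Wnt genes were lost in 7 of 34 cases (20.6%) and gained in 3, and the 24 kept genes had a median change of -1, or between -1 and 0 under the alternatives. Lost were the targets and feedback regulators SP5, NKD1, RNF43, LGR5 and DKK4 and the secreted antagonists SFRP1 and SFRP2, while AXIN2, the classical Wnt target, went from 4 to 1. Of the 7 lost genes 5 had a peak in WT PP (RNF43 8, NKD1 and SFRP1 3 each, SP5 and SFRP2 1 each), and AXIN2 had 5 there, more than in DE. SFRP5, WNT5A and WNT11 gained 1 peak each, with 2, 5 and 1 in WT PP. In the Hedgehog pathway 14 of 15 genes were kept. GLI1, the target that reports pathway activity, was the lost gene (3 to 0, with 2 in WT PP), whereas the receptor PTCH1 went from 2 to 5 (9 in WT PP) and KIF7 from 3 to 8 (1 in WT PP, below DE). No Hedgehog gene gained, but 2 did with p below 1e-05 and 3 with a limit on input reads. Of the FGF, EGF and RAS genes 23 of 32 were kept, 5 lost and 4 gained. ERBB4 (5 to 0), NRG1 (4 to 0), ERBB3, FGF19 and FGF17 were lost, TGFA gained 3 peaks and FGFR4 gained 1. ERBB4, ERBB3 and NRG1 had 6, 5 and 2 peaks in WT PP, and 3 of the 4 gained genes had a peak there. Of the retinoic acid genes 15 of 21 were kept, 4 lost and 2 gained. RARG, CRABP2, CYP26A1 and ALDH1A3 were lost, and CYP26B1 (2 peaks), an enzyme that degrades retinoic acid, and ALDH1A1 (1), an enzyme that makes it, were gained. In WT PP neither gained gene had a peak, and 2 of the 4 lost genes did (RARG 2, CRABP2 1). The share of lost genes in none of these 4 pathways lay above the 22.9% of all genes.

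All 22 genes of the m6A machinery were kept, with 90 peaks in DE and 87 in PP, 7 genes with more and 9 with fewer. YTHDF3 went from 3 to 7, RBM15 from 5 to 7 and FTO from 1 to 3 peaks, RBM15B from 6 to 2 and HNRNPA2B1 from 5 to 2. WT PP had 5, 3, 4, 8 and 2 peaks on these 5 genes, so RBM15 lay below and RBM15B above DE there. METTL3 had 1, ALKBH5 3 and YTHDF2 5 peaks in both lists. With a limit on p or on input reads per peak 19 were kept. Of 30 cell cycle genes 22 were kept, 5 gained and 3 lost. CDKN2C (4 to 0), CCNA2 and CCNE1 were lost, and CDK4, CCNE2, E2F2, PCNA and BUB1 gained, but 3 to 8 gained and 3 to 6 were lost under the limits and with lists of equal size. In WT PP 4 of the 5 gained and 2 of the 3 lost genes had a peak. Of 17 ribosomal protein genes with a peak 14 were kept, 3 were lost and none gained, and no kept one had more peaks in PP. The losses depended on the limits, with 6 of 14 lost with p below 1e-05, and 7 of 16 lost and 1 gained with at least 50 input reads per peak. Of 20 epithelial genes 16 were kept, and KRT8 went from 1 to 4 peaks (1 in WT PP), while GRHL2 gained 4 (6 in WT PP). Of this list 2 genes gained, and up to 6 did with a limit on input reads.

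Genes of neighbouring or later lineages moved in both directions. Among endocrine genes 4 gained (33.3% of those with a peak), 5 were lost (41.7%), 3 kept and 11 had no peak. Of all genes 12.5% gained and 22.9% were lost. INSM1 (2), NEUROD1 and NKX2-2 (1 each), all early endocrine factors, gained, but none of these 3 had a peak in WT PP. NEUROG3, INS, GCG and SST had no peak in DE or PP. Of the liver and intestine genes 13 of 23 had no peak, and of the 10 with a peak 5 gained (50.0%, against 12.5% of all genes), 3 were lost and 2 kept. Beside CDX2 and PROX1, already given with the pancreatic factors, VIL1, APOB and CEBPA gained 1 each, with 7, 13 and 0 in WT PP. Among mesoderm and mesenchyme genes 4 gained (22.2%), 6 were lost (33.3%) and 8 kept. COL3A1, a fibrillar collagen, had 9 peaks in PP, 0 in DE and 0 in WT PP, and SNAI2, PRRX1 and VIM gained 1 each that WT PP lacked as well. FOXF1, a defining mesenchyme factor, lacked peaks in every list read. Of 18 neural genes 14 had no peak in DE or PP. Of the other 4, 3 were lost (75%, against 22.9% of all genes), among them TUBB3 and GAP43, and NES went from 6 to 5.

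**Figure D2:**
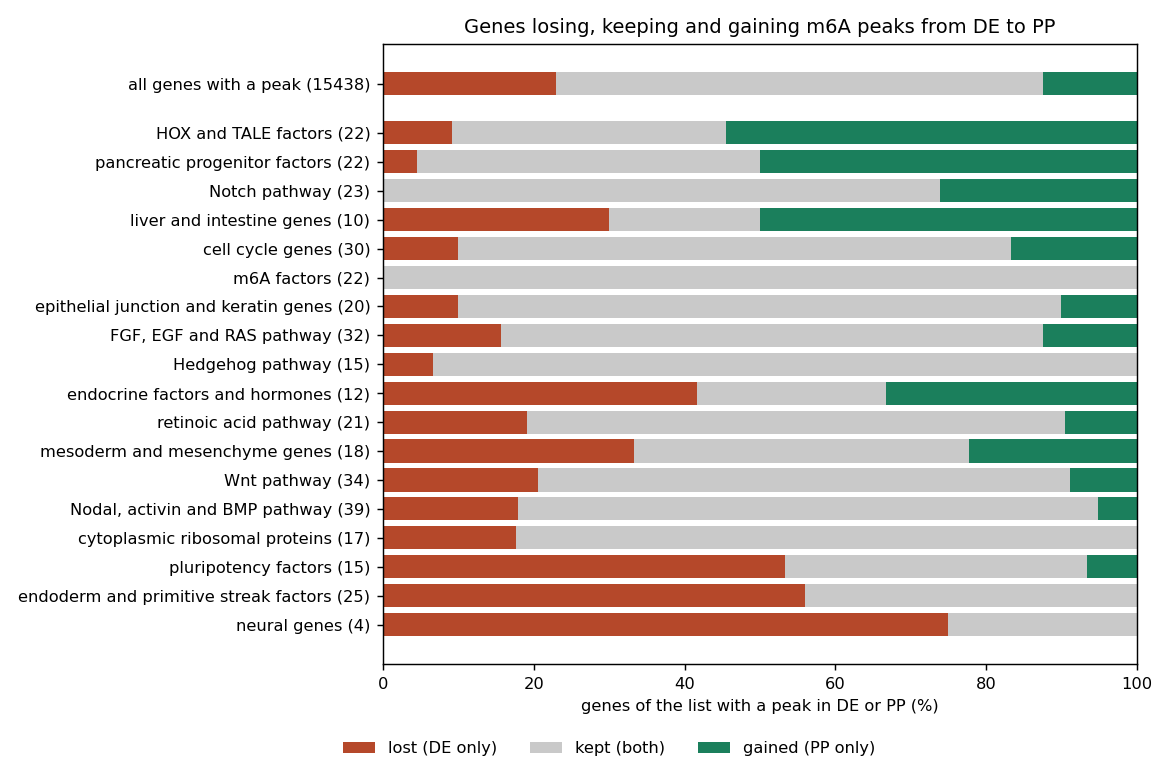
Share of genes that lost (left), kept (middle) or gained (right) m6A peaks from DE to PP, in percent of the genes of each list with a peak in DE or PP (number in brackets). Lists are ordered by the share gained minus the share lost, and the top bar gives all 15438 genes, of which 12.5% gained and 22.9% lost. HOX and TALE factors gained in 54.5% and pancreatic factors and liver and intestine genes in 50.0% of cases, and HOX and TALE factors lay below pancreatic factors under limits on p or input reads. Neural genes (3 of 4) and endoderm factors (56.0%) had the highest shares lost. With p below 1e-05, pluripotency factors (10 of 14) and endocrine genes (6 of 10) lay above endoderm factors (14 of 24).

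Gained and lost genes as a whole were marked lightly. Of gained genes 69.5% and of lost genes 65.5% had a single peak. Protein-coding genes made up 63.1% of the gained, 62.0% of the lost and 84.4% of the kept genes, and lncRNA genes 26.9%, 28.0% and 10.9%. The coding genes among them had a median exonic length of 5053 nt when gained, 4475 nt when lost and 5977 nt when kept.

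The WT PP list, which the classes did not use, held a peak for 62.4% of gained genes (60.3 to 64.6), 55.7% of lost genes (54.0 to 57.3) and 88.1% of kept genes. The intervals of gained and lost genes did not overlap, but they cover no variation between cultures or batches. The share rose with the number of peaks gained, from 54.1% for 1 peak over 76.5% for 2 to 90.5% for 3 or more. It also rose for lost genes, from 48.9% to 72.5%, so most genes with 3 or more peaks in DE and none in PP were marked in WT PP. With the stages before and after, 63.3% of lost and 45.9% of gained genes had a peak in hPSC, and 41.6% and 54.9% in hILO. Of lost genes 17.0% had a peak in DE and in none of the hPSC, hILO and WT PP lists.

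The steps before and after share a list with this one and are given side by side only. From hPSC to DE 1928 genes gained and 2716 lost peaks, from DE to PP 1930 and 3541, and from PP to hILO 3248 and 1796. The PP list was the shortest of the 5 in genes and peaks.

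Among the 9967 kept genes, 2751 had more peaks in PP (27.6%), 3173 had fewer (31.8%) and 4043 the same number. The sign of this balance followed the length of the lists: with both cut to the same number of peaks, 3077 had more and 2542 fewer. For 76.9% of kept genes the number changed by at most 1, while 416 had at least 3 more peaks in PP and 504 at least 3 fewer. The 416 had medians of 3 peaks in DE, 6 in PP and 5 in WT PP, and the 504 had 6, 2 and 5. DE and PP values chose these sets. In WT PP, which played no part, both sets had a median of 5.

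**Figure D3:**
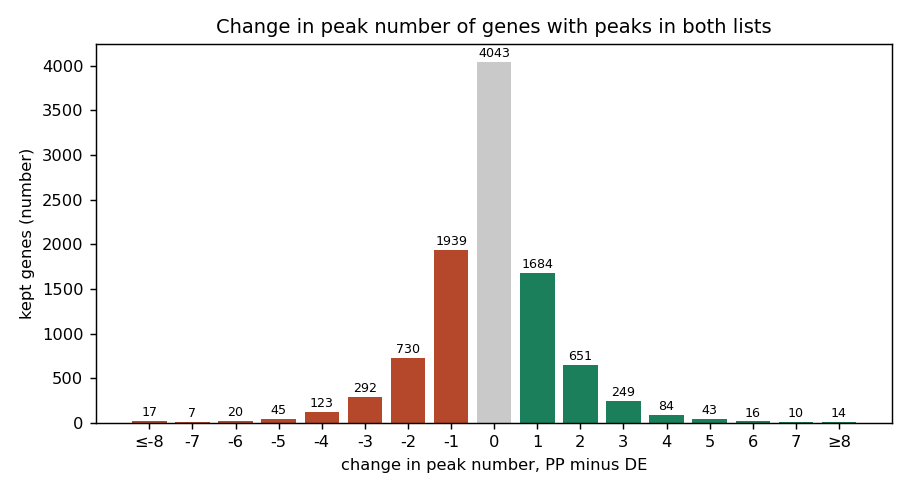
Number of kept genes by change in peak number, PP minus DE. The end bars collect changes of 8 or more in either direction and numbers above the bars give genes. Most genes lie at -1, 0 or 1. With the lists as called 3173 genes lie below 0 and 2751 above, an order that turns with lists of equal size (2542 and 3077).

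The genes with the largest changes are given as a description, since size chose them. Among gained genes PRDM16, a zinc finger regulator, had 14 peaks in PP and 10 in WT PP. CFTR, the chloride channel of pancreatic ducts, had 9 and 7, ONECUT2 8 and 12, MUC20 10 and 1, and COL3A1 9 and 0. MUC20 has near-identical copies, between which reads may be split, so its count is uncertain. Among lost genes the lncRNA XACT, which coats the active X chromosome in pluripotent cells, had 33 peaks in DE, 2 in hPSC and 40 in WT PP. MUC19 had 12 in DE and 14 in WT PP, PCDH10 10 and 8, AHNAK2 10 and 25, and LINC00882 9 and 1. So 4 of the 5 lost genes with most peaks carried many peaks in the second PP list.

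Among kept genes the largest rises were ZFHX3 (8 to 20 peaks, 25 in WT PP), the cytoskeletal linker DST (10 to 21, 34 in WT PP), the matrix proteoglycan VCAN (14 to 24, 11 in WT PP), LINC00342 (1 to 11, 11 in WT PP) and the cadherin FAT1 (9 to 19, 16 in WT PP). For 4 of these 5, WT PP lay above DE as PP did, and VCAN was the exception. The largest falls were the giant muscle protein gene TTN (47 to 13, 95 in WT PP), ZNF814 (18 to 5, 10 in WT PP), EPPK1 (17 to 5, 15 in WT PP), MLYCD (12 to 1, 8 in WT PP) and the apoptosis regulator CFLAR (20 to 11, 24 in WT PP). TTN and CFLAR thus had more peaks in WT PP than in DE.

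Within kept genes the positions of peaks also changed. A peak counted as shared when over 50% of its exonic length was covered by peaks of the other list. Of 26138 PP peaks on kept genes 9584 were new (36.7%, 36.1 to 37.3), and of 26895 DE peaks 11667 were gone (43.4%, 42.8 to 43.97). New PP peaks were short, with a median of 100 nt against 200 nt for shared ones. A place was given only to peaks on the longest isoform, 6908 of 9584 new and 13142 of 16554 shared PP peaks. Of these, new peaks lay in the 5′ UTR in 10.1%, the coding sequence in 62.7% and the 3′ UTR in 27.2% of cases. The shares were 3.39%, 52.3% and 44.3% for shared peaks. Only 10.4% of new peaks with a place lay within 200 nt of the stop codon, against 25.1% of shared ones. Peaks that were gone (8621 of 11667 with a place) resembled shared peaks more in place, with 45.1% in the 3′ UTR and 16.7% near the stop codon.

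GGAC was found on the transcript strand in 40.8% of new and 58.5% of shared PP peaks, and on the opposite strand of the same windows, which have the same length, in 28.9% and 39.5%. Per kb of peak this was 4.36 and 4.74 GGAC, against 2.76 and 2.54 on the opposite strand, so the gap was narrower per kb than per peak. In WT PP 43.2% (42.2 to 44.2) of new and 69.9% of shared PP peaks were covered, and 48.0% (47.1 to 48.9) of the DE peaks that were gone. New PP peaks were thus covered in the second PP list no more often than DE peaks that the first PP list lacked. On the longest isoform lay 1678 of 2945 peaks of gained genes and 3233 of 5785 of lost genes. Of these, peaks of gained genes lay in the 5′ UTR in 9.42% and in the 3′ UTR in 36.0% of cases, and peaks of lost genes in 6.80% and 51.8%.

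The read counts of the lists could be used for some rows only. In both lists a peak's IP reads should scale with its exonic length, and along stretches of rows they did not. With rows in the text order of the peak names (peak 1, peak 10, peak 100 and so on), windows of 400 rows showed a median Spearman correlation of 0.58 in DE and 0.55 in PP along some stretches, and of 0.016 and 0.012 elsewhere. Of all windows, 36.4% in DE and 13% in PP had their highest correlation at the row itself, and 60.4% and 81.5% when counts were read 1 to 6 rows away. The counts, log2 enrichments and p-values of those rows were not used for single genes. Rows where counts and coordinates were in step numbered 11747 of 32680 in DE (35.9%) and 3565 of 29083 in PP (12.3%). Measures that did not pick the stretches differed in the same way. Adjacent peaks of 1 gene less than 50 nt apart had correlated input reads per nt with rho = 0.77 in step (676 pairs) and 0.17 elsewhere (1072 pairs) in DE, and 0.71 (232) and 0.21 (1506) in PP. These correlations run across peaks and carry no p.

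**Figure D4:**
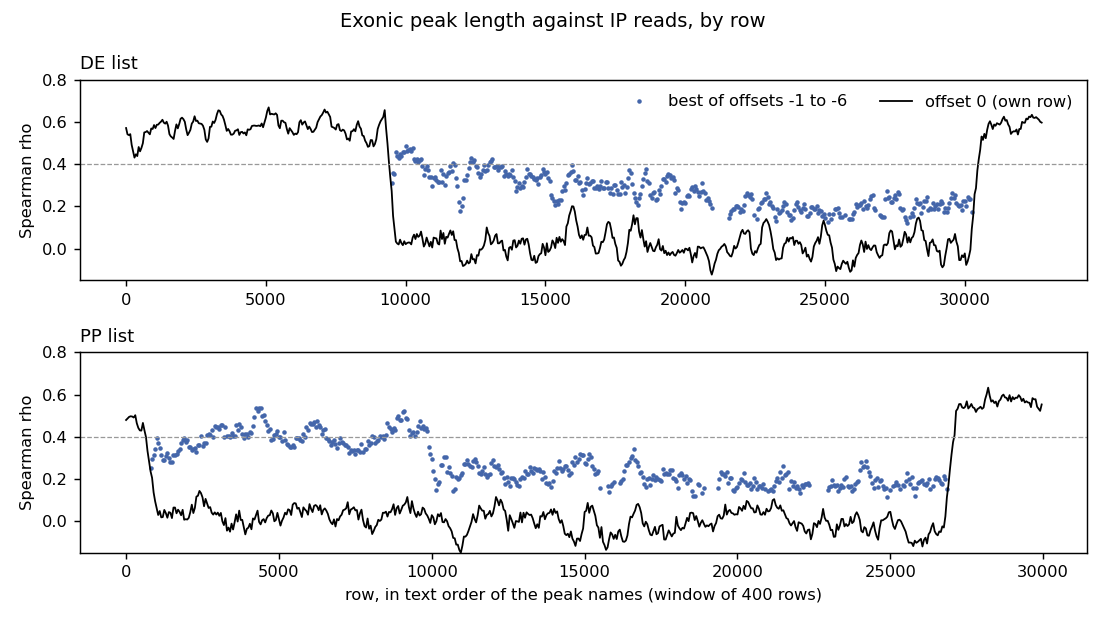
Spearman correlation between exonic peak length and IP reads in windows of 400 rows, with rows in the text order of the peak names, for DE (top) and PP (bottom). The line pairs each peak with its own row, and points give the best correlation where it was reached 1 to 6 rows earlier. The line is near 0.6 at the start and end of the DE list and at the end of the PP list, high over a short stretch at the start of the PP list, and near 0 between, where the points lie above it.

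Peak presence, number, position and sequence rest on the coordinates and do not use the counts. They can be touched through rows left out of the lists, since 1.42% of the peak numbers up to the highest were not listed in DE, 4.23% in PP and 9.51% in WT PP. Reads per gene were taken only from genes with every row in step, a choice that used IP reads through their correlation with peak length over windows of rows, and not the change of a gene. This left 1041 kept genes, of which 883 had at least 50 input reads in both lists. Input reads per kb of peak stand here for the level of the transcript, and IP over input for its enrichment. The peaks of a gene need not lie at the same place in both lists, so a change can compare different stretches of a transcript, and a value over shared peaks alone was had for 752 of the 883. Changes are log2 PP over DE with the median over these genes taken off (-0.24 for input, 0.55 for IP and 0.77 for IP over input). Scaling by total reads in peaks instead raises every input change by 0.62.

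Among genes in step with a peak in both lists, input reads varied more across genes than enrichment did. A peak is listed only above a calling limit (the smallest log2 enrichment was 0.59), so genes that fell under it in either list are not among these, which bounds the range of the ratio. The need for reads in both lists bounds that of input as well, and how far each range is narrowed was not tested. Input density was at least 2-fold higher in PP for 122 of 883 genes (13.8%) and at least 2-fold lower for 150 (17%). With scaling by total reads in peaks in place of the median, 313 genes were higher and 71 lower, so the balance of rises and falls follows the scaling. IP over input was at least 2-fold higher for 3 genes (0.34%) and at least 2-fold lower for 1 (0.113%). The standard deviation across genes was 1.20 for the input change and 0.28 for the ratio change, with a median counting error of 0.097 and 0.11. The central 90% of ratio changes ran from -0.44 to 0.47. IP and input changes ran together across genes (rho = 0.96), and the ratio change ran against the input change (rho = -0.43), but each pair has reads in common. The ratio change also ran with the GC content of the peaks (rho = 0.37), whose part in it was not tested.

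Taken with the rows as deposited, which pairs many peaks with counts of a neighbour, 7537 kept genes were measured. Of these, 1938 (25.7%) had at least 2-fold higher and 1946 (25.8%) at least 2-fold lower input, 213 (2.83%) at least 2-fold higher and 122 (1.62%) at least 2-fold lower IP over input. The 20 largest of those changes all belonged to genes with rows out of step and are not named.

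The largest rise in input among genes in step was IGF2, a fetal growth factor, with 739 input and 2109 IP reads in DE and 11572 and 50176 in PP, a change of 5.79 ± 0.055 (counting error) in input and -0.17 ± 0.063 in the ratio. Its DE and PP peaks did not overlap, so these reads come from different stretches, which the counting error does not cover. EFNB2, an ephrin ligand, had 51 input reads in DE and 6663 in PP (5.03 ± 0.20), without a value over shared peaks. MNX1, a homeobox factor of the pancreatic bud, had 181 and 5031 (4.55 ± 0.11, or 4.27 over shared peaks), and its IP reads rose from 730 to 36234, so its ratio changed by 0.07 only. MMP24OS changed by 3.84 ± 0.19, again between peaks at different places. These genes had peaks in both lists, and their rise shows in input and IP reads alike.

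The largest falls were SERP1 (4112 to 70 input reads), VAMP8 (6230 to 112), PODXL (18403 to 286), RAB17 (9339 to 111) and SERPINB6 (1096 to 80), with changes of -5.11, -5.08, -4.60, -4.53 and -4.11. VAMP8 is a vesicle fusion protein and PODXL a surface sialomucin abundant on stem cells. The fall of SERP1 depended on which peaks were summed, since over shared peaks alone it was -0.68. SERPINB6 had no value over shared peaks. CXCR4, the chemokine receptor used to sort endoderm, fell from 14180 to 507 input reads (-3.78 ± 0.065) with a ratio change of -0.04. BMP2 fell from 5472 to 667 (-2.63 ± 0.059), and BMP4 from 1413 to 21, which is under the read minimum in PP. EPCAM fell from 4339 to 1211 (-3.27), or by 1.39 over shared peaks. DUSP4, a feedback phosphatase of the ERK pathway, changed by -1.69 ± 0.097.

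Further listed genes in step changed in either direction. CENPF, a kinetochore protein, went from 2366 to 8258 input reads (2.03 ± 0.034), ALDH1A2, the retinoic acid synthesis enzyme, from 72 to 303 (1.52 ± 0.19, between peaks at different places) and CDH1, the epithelial cadherin, from 654 to 1093 (1.04 ± 0.071). HNRNPA2B1 went from 61752 to 30972 (-1.49 ± 0.010; -0.64 over shared peaks). FOXA2 had 3858 and 3183 input reads and 13124 and 21330 IP reads, a change in input of -0.13 whose sign turned with scaling by total reads. The same holds for CRB3, NCOA3, SMO, METTL16 and RPL5. ID1 and ZC3H13 were among those that turned sign under another alternative.

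In IP over input the 3 rises past 2-fold were SERP1 (1.36 ± 0.19, or 0.63 over shared peaks), the RNA-binding protein BICC1 (1.18 ± 0.29) and the deubiquitinase MINDY2 (1.01 ± 0.17, or 0.36 over shared peaks). BICC1 had 74 input and 142 IP reads in DE and 56 and 418 in PP, in single peaks that did not overlap. MAPKAP1 (0.90, or 0.35 over shared peaks) and INHA (0.86, or 0.88) followed. The 1 fall was ALDH1A2 (-1.01 ± 0.22), from 72 input and 191 IP reads to 303 and 677, in peaks that did not overlap. Its change was -0.92 with a pseudocount of 10. With the median taken off within 5% bins of GC content it was -0.94, and ABHD8 passed 2-fold instead (-1.18). Over shared peaks, 1 gene of 752 was at least 2-fold higher and 0 lower in IP over input. SARM1 (-0.86), AMD1 (-0.80) and ABHD8 (-0.78) were among the next, all genes whose input had risen, and of these 3 AMD1 alone had a value over shared peaks (-0.77). With at least 200 input reads required in both lists, 0 of 617 genes changed 2-fold in IP over input.

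**Figure D5:**
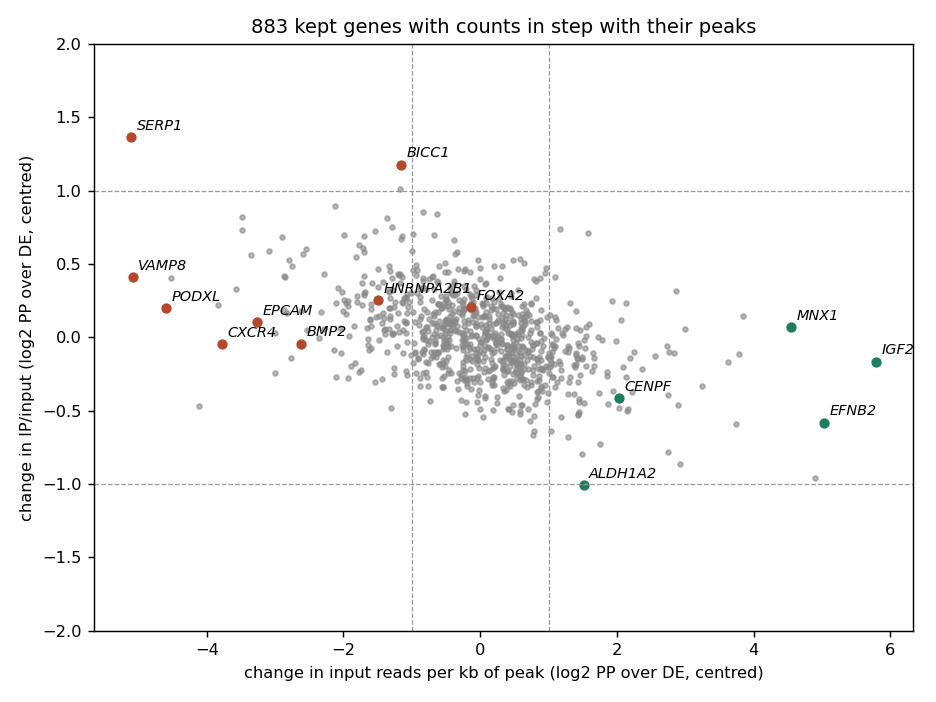
Change in IP over input against change in input reads per kb of peak for the 883 kept genes with counts in step with their peaks, both as log2 PP over DE with the median taken off and summed over all peaks of a gene, shared or not. Dashed lines mark 2-fold. Input changes reach from -5.11 (SERP1) to 5.79 (IGF2), while 4 genes lie outside 2-fold in IP over input.

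The lost and gained genes with rows in step showed how far their transcripts had been sequenced in the list that held the peak. In DE 855 lost genes had a median of 530 input reads per kb of peak against 817 for 3530 kept genes, and 31.1% against 8.13% had fewer than 50 input reads. In PP 147 gained genes had a median of 420 against 702.5 for 1115 kept genes, and 35.4% against 11.4% had fewer than 50. Gained and lost genes thus lay lower in input than kept ones. The lost endoderm factors in step lay mostly above them. CER1 had 89465 input and 274438 IP reads in DE, the highest input per kb of all genes in step there. LEFTY2 had 19898 input reads, NODAL 9876, EOMES 5167, GSC 4555 and FGF17 3494, and these genes lay between the 91.9th and the 99.9th percentile of input per kb. PRDM1 and APLNR had 1482 and 937 input reads and lay lower, at the 62.0th and 52.4th percentile. Among pancreatic factors in PP, ONECUT2 had 5520 input and 21788 IP reads, SOX9 4111 and 29949, NR5A2 910 and 4640, and PROX1 579 and 2646. The Wnt antagonist SFRP5 had 1459 input reads and HOXB4 had 789, whereas NKX2-2 had 14 and DLL4 57.

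The median input change did not follow the order of the change in peak number. Genes in step with more peaks in PP had a median input change of 0.26 (301 genes), those with the same number -0.15 (303) and those with fewer -0.08 (279). The median ratio changes were -0.04, -0.02 and 0.05. At least 2-fold higher input was seen in 55, 40 and 27 genes of these groups, and at least 2-fold lower input in 46, 47 and 57.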

How the data were processed

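m6A-seq peak lists of 5 populations were used, each called on 2 IP and 2 input libraries. Trimming with fastp, HISAT2 alignment to the GRCh38 genome and peak calling with exomePeak2 were done by the authors. The deposited lists give pooled read counts of IP and input (sums or means, not stated), a log2 enrichment and p-values; adjusted p was below 0.05 in DE and PP. Spans were reduced to exons of GENCODE 44. For a peak with several gene identifiers (17.5% in DE, 17.1% in PP), genes with at least 90% of the largest exon overlap were candidates. Among these, protein-coding genes other than readthrough genes came first, and then the larger overlap. Reads were summed over the peaks of a gene with a pseudocount of 1 read. Whether each row's counts belong to its coordinates was checked in windows of 400 rows, with a correlation of at least 0.4 required at offset 0. Steps were tested on simulated data with known answers. The planned read comparisons used all rows; the restriction to rows in step was added after seeing the data. The 18 gene lists and all members were chosen with earlier results of these data known. Named genes were list members with a gain, a loss, 3 or more peaks or a known role, and the 5 largest per class, direction and measure. Python 3.11.15, pandas 2.3.3 and pysam 0.24.0 were used. Alternatives covered thresholds, list size, overlap, scaling, pseudocount and read minimum. Some listed genes are not reported here.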

Additional observations from a re-analysis of the deposited data

How the results depend on the processing

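No paired analysis was possible because each list pools its libraries, so fits with the replicate number or without a replicate were not run. The thresholds on enrichment, p and input reads act on columns that are partly out of step with the coordinates. Rows of unlisted peak numbers, unequal depth and the batch of WT PP limit all counts. Under the first set of alternatives 56 values stayed close to the reported ones and 39 moved, and of those added after seeing the data 22 stayed close and 16 moved. The counts of gained and lost genes stayed within 1.5 times under every alternative run, but their shares of all genes reached 21.8% and 34.7% with p below 1e-10. The causes of the shifts below were not tested, apart from the smaller number of genes or peaks that a stricter limit leaves.

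Kept genes with more peaks numbered 1793 with p below 1e-05, 1063 with p below 1e-10 and 1822 with at least 50 input reads per peak. With p below 1e-10 there were 4465 kept genes, 1197 of them with fewer peaks. Gained genes with a peak in WT PP came to 56.7%, 52.5% and 54.4% under the same 3 limits, and lost genes to 47.4%, 43.3% and 47.8%. New PP peaks and gone DE peaks made up 37.7% and 46.8% with a log2 enrichment of at least 1, 43.98% and 51.3% with p below 1e-05, 50.2% and 56.7% with p below 1e-10, 43.3% and 51.7% with at least 50 input reads, 39.9% and 42.0% with lists of equal size, 28.7% and 32.6% when any overlap counted, and 53.8% and 55.1% when the overlap was required of both peaks.

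With the rows as deposited, input was at least 2-fold higher and lower in 3037 and 1185 genes when scaled by total reads, 2917 and 2957 without a read minimum, 946 and 942 with at least 200 input reads and 1168 and 1108 with p below 1e-10. IP over input was at least 2-fold higher and lower in 544 and 361 genes without a minimum, 66 and 43 with at least 200 reads and 116 and 64 with p below 1e-10. Restriction to genes in step gave 122 and 150 for input and 3 and 1 for IP over input. Among genes in step, scaling by total reads gave 313 and 71 for input and 2 falls in IP over input, a pseudocount of 10 gave 0 such falls, shared peaks gave 1 rise and 0 falls, no minimum gave 17 and 10, and at least 200 input reads gave 71 and 84 for input and 0 and 0 for IP over input.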
